A study of Homo sapiens with 16 samples.

Results

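The genes described here are 44 genes of the transforming growth factor beta (TGF-beta) superfamily pathway: ligands, receptors, SMAD proteins, the proteins that work with them inside the cell, and the extracellular antagonists. They were chosen by name, out of 19974 protein-coding genes on chromosomes 1 to 22 and X, and sorted into 8 classes by role. For each gene the peak summits inside its RefSeq gene body (GRCh38) or within 10 kb of either end were counted in 10 deposited peak lists, and the counts were set beside those of other protein-coding genes of similar length. The lists come from chromatin immunoprecipitation followed by sequencing in A375, an established human melanoma line. Cells treated with TGFB1 received 10 ng/mL of the ligand for 2 h, vehicle cells received the carrier alone (HCl at 4 mM, BSA at 1 mg/mL) over the same time, and both had been starved for 2 h beforehand. Antibodies to SMAD2/3, to the active chromatin mark H3K27ac, and to the transcription factors MITF, ATF3 and JUNB were each used in both treatments. Each antibody and treatment had 1 library, so the differences below have no replicate check, no test between treatments could be made, and intervals cover counting error only. Each pair of TGFB1 and vehicle libraries shared an experiment date: SMAD2/3 and H3K27ac 1 date, MITF another, and ATF3 and JUNB the last of the 3.

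In this pathway a dimeric ligand brings together type II and type I receptor kinases, and the type I kinase phosphorylates receptor SMADs. TGF-beta and activin receptors act on SMAD2 and SMAD3, BMP receptors on SMAD1, SMAD5 and SMAD9, and both sets pair with SMAD4, move to the nucleus and bind DNA beside other factors such as the AP-1 proteins. Several genes of the pathway are themselves known targets of SMADs, and TGF-beta signalling is known in melanoma for its link to dedifferentiated, invasive cell states. MITF is the master regulator of the melanocyte lineage, JUNB is an AP-1 subunit, and ATF3 is a stress-induced bZIP factor.

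The promoters of SMAD3, TGFB1 and ACVR1 are shown because a SMAD2/3 summit of the TGFB1 library lay inside their RefSeq promoter windows. The window runs from 250 bases before to 50 bases after the start site. It was available for 38 members, and these were the only ones of the 38 with such a summit. The other 6 could not be checked, among them BMP2, whose summit lay 0.170 kb outside the gene body. The sequences are from RefSeq (GRCh38.p14) and are written 5′ to 3′ in the direction of transcription, with matches on either strand to the SMAD half-site CAGAC in capitals, along with those to a short sequence rich in cytosine and guanine that SMADs also bind, GGCGC. SMAD3 lies at chr15:67065352-67065651 on the plus strand, TGFB1 at chr19:41353873-41354172 on the minus strand and ACVR1 at chr2:157876281-157876580 on the minus strand.
SMAD3: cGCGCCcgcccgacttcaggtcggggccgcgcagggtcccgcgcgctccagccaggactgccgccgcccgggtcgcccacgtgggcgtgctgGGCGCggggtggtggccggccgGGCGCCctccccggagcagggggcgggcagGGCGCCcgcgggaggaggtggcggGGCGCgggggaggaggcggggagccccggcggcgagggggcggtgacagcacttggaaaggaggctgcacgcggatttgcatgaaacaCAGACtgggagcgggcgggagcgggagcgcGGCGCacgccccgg
TGFB1: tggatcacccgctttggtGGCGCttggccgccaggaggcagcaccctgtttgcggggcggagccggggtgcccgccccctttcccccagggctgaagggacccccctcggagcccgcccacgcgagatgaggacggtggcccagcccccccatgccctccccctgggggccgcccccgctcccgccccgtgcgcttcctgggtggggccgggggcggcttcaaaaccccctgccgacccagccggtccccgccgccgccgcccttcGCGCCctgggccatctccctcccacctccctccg
ACVR1: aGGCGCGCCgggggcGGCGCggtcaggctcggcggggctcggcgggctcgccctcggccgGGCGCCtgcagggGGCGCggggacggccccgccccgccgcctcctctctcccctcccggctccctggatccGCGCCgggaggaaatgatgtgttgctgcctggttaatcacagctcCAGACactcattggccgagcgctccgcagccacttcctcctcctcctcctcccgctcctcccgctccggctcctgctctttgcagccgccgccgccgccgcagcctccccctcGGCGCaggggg
The SMAD3 window held 8 matches to the cytosine- and guanine-rich site and 1 to the half-site, and the ACVR1 window likewise held 8 and 1. Of the 15812 promoters in the table, 62.7% held at least 1 match to the cytosine- and guanine-rich site and 3.27% held 8 or more, while 44.1% held the half-site. The TGFB1 window held 2 matches to the richer site, a number reached by 47.1% of promoters, and none to the half-site. The richer site and its reverse complement can overlap by 4 bases, and both were then counted. None of the 3 windows held the AP-1 motif TGANTCA, which was present in 5.76% of promoters, the CRE motif TGACGTCA (2.59%) or the M-box core CATGTG (8.43%), and the E-box CACGTG, present in 8.87%, occurred once, in SMAD3. The windows were 80.3% guanine and cytosine in SMAD3, 77.3% in TGFB1 and 76.3% in ACVR1, and matches are letters in a window, not measured sites.

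SMAD2/3 summits were listed at 19 of the 44 genes in TGFB1-treated cells and at 1, TGFB1 itself, in vehicle cells. The 19 held 37 summits: 7 at SMAD3, 4 each at TGFB1 and TGFBR2, 3 each at TGFB2 and BMP1, 2 each at BMPR2 and FKBP1A, and 1 each at the other 12. Over all 19974 genes the TGFB1 list touched 28.2% and the vehicle list 1.77%. With TGFB1 and not in vehicle, 18 members had a summit, where 26.6% of all genes did, and in vehicle and not with TGFB1 no member did, where 0.190% of all genes did. The 2 SMAD2/3 lists differed in the same way throughout the genome, with 11406 peaks in the TGFB1 library and 1247 in the vehicle library at depths, estimated from the peak values, of 10.2 and 9.37 M reads. The shortest SMAD2/3 peak was 183 bp in the TGFB1 list and 311 bp in the vehicle list. For the other antibodies these lengths were 171 and 171 bp (H3K27ac), 180 and 185 (MITF), 153 and 149 (ATF3), and 144 and 145 (JUNB). The SMAD2/3 lists may therefore not have been called alike, and what this did to their lengths was not tested. Of the 37 sites, 36 overlapped no vehicle peak, a share of 97.3% beside 94.3% of all SMAD2/3 peaks of the TGFB1 list.

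**Figure D1:**
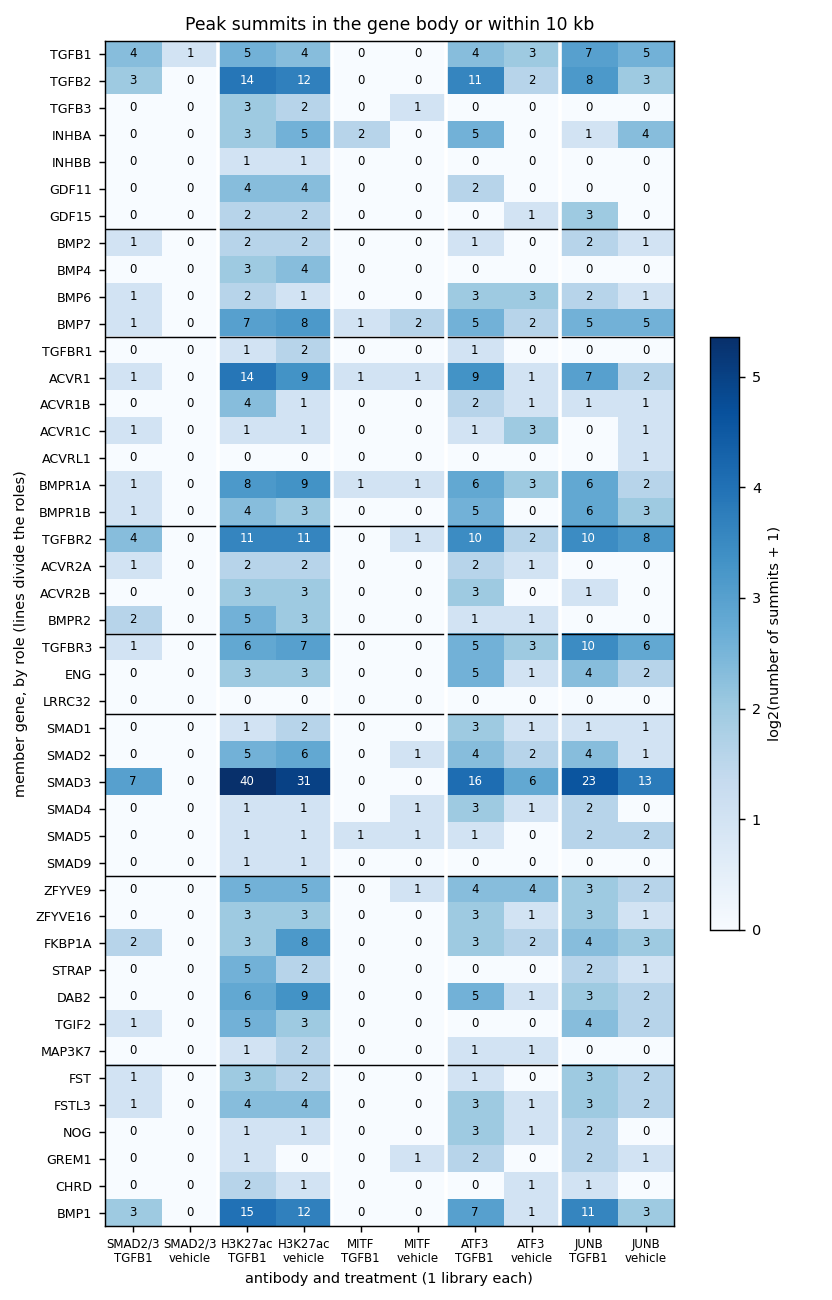
Number of peak summits in the body or within 10 kb of each of the 44 genes (down, divided by role) in each of the 10 peak lists (across; TGFB1 left of vehicle for each antibody); the colour is log2 of the number plus 1. SMAD3 had the highest count in 7 of the lists, the SMAD2/3 vehicle column holds a single summit, and LRRC32 is at 0 in all 10.

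Long genes collect more summits, so each member was set beside the 200 other protein-coding genes nearest to it in length. Members with a SMAD2/3 summit in TGFB1-treated cells made up 43.2% (95% Wilson interval over genes 29.7 to 57.8), against 30.9% of the genes of similar length, whose shares would give 13.6 members in place of 19. The mean number was 0.841 summits per member and 0.497 per gene of similar length. The interval contains the 30.9%, and it likewise contained the share of the other genes when the gene body alone, a window of 50 kb, peak intervals in place of summits, a -log10 q of at least 5 or a fold enrichment of at least 6 was used. It lay above that share under 3 other settings. Where each summit counted for its nearest gene only, the members' share was again 43.2% (29.7 to 57.8), beside 25.5%. Among the 35 members with an H3K27ac summit within 1 kb of a gene end in vehicle cells, 16 had a SMAD2/3 summit (45.7%), beside 37.1% of similarly long genes that also carried the mark. Where only summits within 1 kb of a gene end counted, 12 members had a SMAD2/3 summit (27.3%, interval 16.3 to 41.8), beside 12.2% of genes of similar length. With the TGFB1 list limited to its 1247 strongest peaks, as long as the vehicle list, 6 members had a summit (13.6%, interval 6.4 to 26.7), beside 4.16%. Whether members and other genes of their length differ therefore depended on the setting. With a -log10 q of at least 5 the shares were 25.0% and 21.2%.

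**Figure D2:**
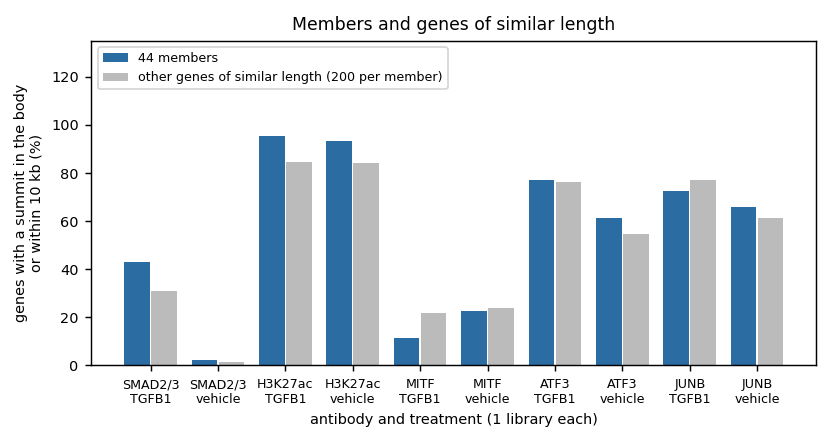
Percent of genes with a summit in the body or within 10 kb, for the 44 members (blue) and for the 200 genes nearest in length to each (grey), in the 10 peak lists, 1 library each. The members stand above the grey bar for SMAD2/3 with TGFB1 (43.2% and 30.9%) and below it for MITF with TGFB1 (11.4% and 21.9%).

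By role, SMAD2/3 summits of TGFB1-treated cells touched 2 of 7 TGF-beta and activin ligands, 3 of 4 BMP ligands, 4 of 7 type I receptors, 3 of 4 type II receptors, 1 of 3 co-receptors and ligand-presenting proteins, 1 of 6 SMADs, 2 of 7 adaptors and intracellular partners, and 3 of 6 antagonists and protease. The shares of genes of similar length would give 1.76, 1.24, 2.69, 1.49, 0.955, 2.19, 2.02 and 1.24 members in the same order. For the 12 members with a single summit, the share of similarly long genes with at least 1 ran from 19.5% (FSTL3) to 55.5% (BMPR1B). The classes are small, and no class was tested against another.

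Among the ligands, the 2 strongest SMAD2/3 sites of the whole group lay close together inside TGFB2, which encodes the TGF-beta2 ligand. TGFB2 (chr1:218345336-218444619, plus strand) had 3 SMAD2/3 summits with TGFB1 and 0 in vehicle, 14 and 12 H3K27ac summits, 11 and 2 ATF3 summits, 8 and 3 JUNB summits and no MITF summit in either treatment. The strongest site spanned chr1:218377344-218377694, 32.2 kb after the start site, with a fold enrichment of 22.9 and a -log10 p of 62.1, both the authors' values for the peak. The other spanned chr1:218374607-218375367, 29.8 kb after the start, with a fold enrichment of 18.8 and a -log10 p of 47.9. These placed them among the top 2.06% and 3.47% of the list. Both overlapped H3K27ac peaks of the TGFB1 library and none of the vehicle library. The H3K27ac peak at the nearer site (chr1:218373849-218375034) had a fold enrichment of 15.7, and the stretch between the sites carried a further one (chr1:218375548-218377349, 16.3) that the vehicle library listed only as a short peak of 3.97 at chr1:218377055-218377259. JUNB lay on both sites in either treatment: at the stronger one its fold enrichment was 23.4 in the TGFB1 library and 24.3 in the vehicle library, and at the other 22 in the TGFB1 library and 7.52 in the vehicle library. ATF3 lay on both in the TGFB1 library and on neither in the vehicle library, which was sequenced less deeply.

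TGFB1, the gene of the ligand that was added, was the only member with a SMAD2/3 summit in vehicle cells. TGFB1 (chr19:41330323-41353922, minus strand) had 4 SMAD2/3 summits with TGFB1 and 1 in vehicle, 5 and 4 H3K27ac summits, 4 and 3 ATF3 summits, 7 and 5 JUNB summits and no MITF summit. The site found in both treatments lies on the promoter printed above. It spanned chr19:41353706-41354192 with a fold enrichment of 7.23 and a -log10 p of 18.8 in the TGFB1 library, and chr19:41353870-41354205 with 3.68 and 6.53 in the vehicle library. The other 3 lay 26.0, 30.1 and 31.8 kb after the start, in the 10 kb beyond the gene's end, and the strongest of them (chr19:41323650-41324035, fold enrichment 12.8, -log10 p 35.7) and the farthest had their summits inside the neighbouring gene CCDC97.

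TGFB3, INHBA and INHBB (the activin subunits), GDF11 and GDF15, the remaining members of this class, had no SMAD2/3 summit in either treatment. Of the BMP ligands, BMP2, BMP6 and BMP7 had 1 each with TGFB1 and none in vehicle, and BMP4 had none. The strongest was at BMP7 (chr20:57251509-57251710, fold enrichment 7.20, -log10 p 13.7), a gene with 7 H3K27ac summits with TGFB1 and 8 in vehicle, 1 and 2 MITF summits, 5 and 2 ATF3 summits, and 5 in each treatment for JUNB. The BMP2 site, 0.170 kb outside the gene body, had a -log10 p of 4.33, near the weak end of the list.

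Among the receptors, the sites were most numerous at TGFBR2, the type II receptor that binds TGF-beta. TGFBR2 (chr3:30606356-30694142, plus strand) had 4 SMAD2/3 summits with TGFB1 and 0 in vehicle, 11 H3K27ac summits in each treatment, 0 MITF summits with TGFB1 and 1 in vehicle, 10 and 2 ATF3 summits, and 10 and 8 JUNB summits. The strongest (chr3:30689163-30689651, fold enrichment 13.2, -log10 p 27.3) lay 83.1 kb after the start. The others lay 0.565, 53.4 and 75.5 kb after it, with -log10 p of 5.18, 7.66 and 11.1, the first near the weak end of the list. All 4 carried H3K27ac and JUNB in both treatments and ATF3 in the TGFB1 library. The summit nearest the start also lies in the overlapping gene LOC105377015.

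BMPR2, the type II receptor for BMPs, had 2 SMAD2/3 summits with TGFB1 and 0 in vehicle, 5 and 3 H3K27ac summits, 1 ATF3 summit in each treatment, and no JUNB or MITF summit. Its sites lay 0.0730 kb and 159 kb after the start, with -log10 p of 18.4 and 26.6, and neither carried ATF3 or JUNB. ACVR2A, an activin type II receptor, had 1 weak site (-log10 p 4.25) at -0.413 kb from its start, and ACVR2B had none.

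TGFBR1, the type I receptor for TGF-beta, had no SMAD2/3 summit in either treatment, and neither did the activin receptor ACVR1B or ACVRL1, an endothelial type I receptor. ACVR1, ACVR1C, BMPR1A and BMPR1B had 1 each with TGFB1 and none in vehicle. At ACVR1 the summit lay 0.161 kb before the start, on the promoter printed above (fold enrichment 4.63, -log10 p 8.07). At ACVR1C it lay 0.170 kb after the start, near the weak end of the list (3.61, 5.21), and at BMPR1A 0.494 kb after it (3.81, 7.83). The strongest was the BMPR1B site (chr4:95129913-95130268, fold enrichment 6.82, -log10 p 12.6), deep in a gene body of 400.5 kb. BMPR1B had 4 and 3 H3K27ac summits, 5 and 0 ATF3 summits and 6 and 3 JUNB summits, TGFB1 and vehicle, and no MITF summit.

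Of the 3 co-receptors and ligand-presenting proteins, TGFBR3 (betaglycan) had a SMAD2/3 summit 0.278 kb after its start in TGFB1-treated cells (fold enrichment 3.76, -log10 p 5.70) and none in vehicle. Its other counts were 6 and 7 for H3K27ac, 5 and 3 for ATF3, 10 and 6 for JUNB, TGFB1 and vehicle, and 0 for MITF. ENG (endoglin) had no SMAD2/3 summit. LRRC32, which displays latent TGF-beta on regulatory T cells, had no summit in any of the 10 lists.

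Among the SMADs, the SMAD2/3 sites were all at SMAD3, a receptor SMAD for TGF-beta and activin signals. SMAD3 (chr15:67065602-67195169, plus strand) had 7 SMAD2/3 summits with TGFB1 and 0 in vehicle, 40 and 31 H3K27ac summits, 0 MITF summits in either treatment, 16 and 6 ATF3 summits, and 23 and 13 JUNB summits. Of the 200 genes of similar length, 0.5% had as many SMAD2/3 summits, and their median H3K27ac number was 4 in each treatment. The 7 sites were spread from the promoter, where the summit lay 0.0140 kb before the start (chr15:67065363-67065932, fold enrichment 9.35, -log10 p 28.7), through 25.8, 41.5, 44.2, 55.6 and 84.0 kb to the strongest at 84.7 kb (chr15:67150098-67150849, 13.2, 31.1). All 7 carried H3K27ac in both treatments and JUNB in the TGFB1 library, and 5 carried ATF3 in that library.

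SMAD2, which transmits the same signal as SMAD3, had no SMAD2/3 summit, and neither did the shared partner SMAD4 or the BMP-responsive SMAD1, SMAD5 and SMAD9. The -log10 p of single SMAD2/3 peaks at all 19 members ran between 4.25 and 62.1 with a median of 12.6, beside a median of 10.1 for the 7099 sites at other protein-coding genes. Their median width was 380.0 bp beside 281 bp.

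Of the adaptors and intracellular partners, FKBP1A, which encodes the FKBP12 protein that holds type I receptors inactive, had 2 SMAD2/3 summits with TGFB1 and 0 in vehicle. They lay 7.02 and 9.32 kb before its start (-log10 p 21.3 and 24.8; the stronger at chr20:1402233-1402533), with H3K27ac and ATF3 on both sites in either treatment. FKBP1A had 3 and 8 H3K27ac summits, 3 and 2 ATF3 summits and 4 and 3 JUNB summits, TGFB1 and vehicle, and none of MITF. TGIF2, a co-repressor that binds SMADs, had 1 site 0.0740 kb after its start (-log10 p 9.21). The SMAD anchors ZFYVE9 (SARA) and ZFYVE16 (endofin), STRAP, DAB2 and the kinase gene MAP3K7 (TAK1) had none.

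Of the secreted antagonists, FSTL3 and FST, which bind activin, had 1 SMAD2/3 summit each with TGFB1 and none in vehicle. The FSTL3 site (chr19:677138-677549, fold enrichment 11.9, -log10 p 37.9) lay 0.982 kb after the start and had the highest -log10 p outside TGFB2, and the FST site 0.909 kb before the start had a -log10 p of 4.33. FSTL3 had 4 H3K27ac summits in each treatment, 3 and 1 for ATF3 and 3 and 2 for JUNB, TGFB1 and vehicle, and none of MITF. The BMP antagonists NOG, GREM1 and CHRD had no SMAD2/3 summit. BMP1, a protease that cleaves chordin and procollagen and not a superfamily ligand, had 3 with TGFB1 and 0 in vehicle (-log10 p 11.5, 10.7 and 6.76), with 15 and 12 H3K27ac summits, 7 and 1 ATF3 summits, 11 and 3 JUNB summits and none of MITF.

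**Figure D3:**
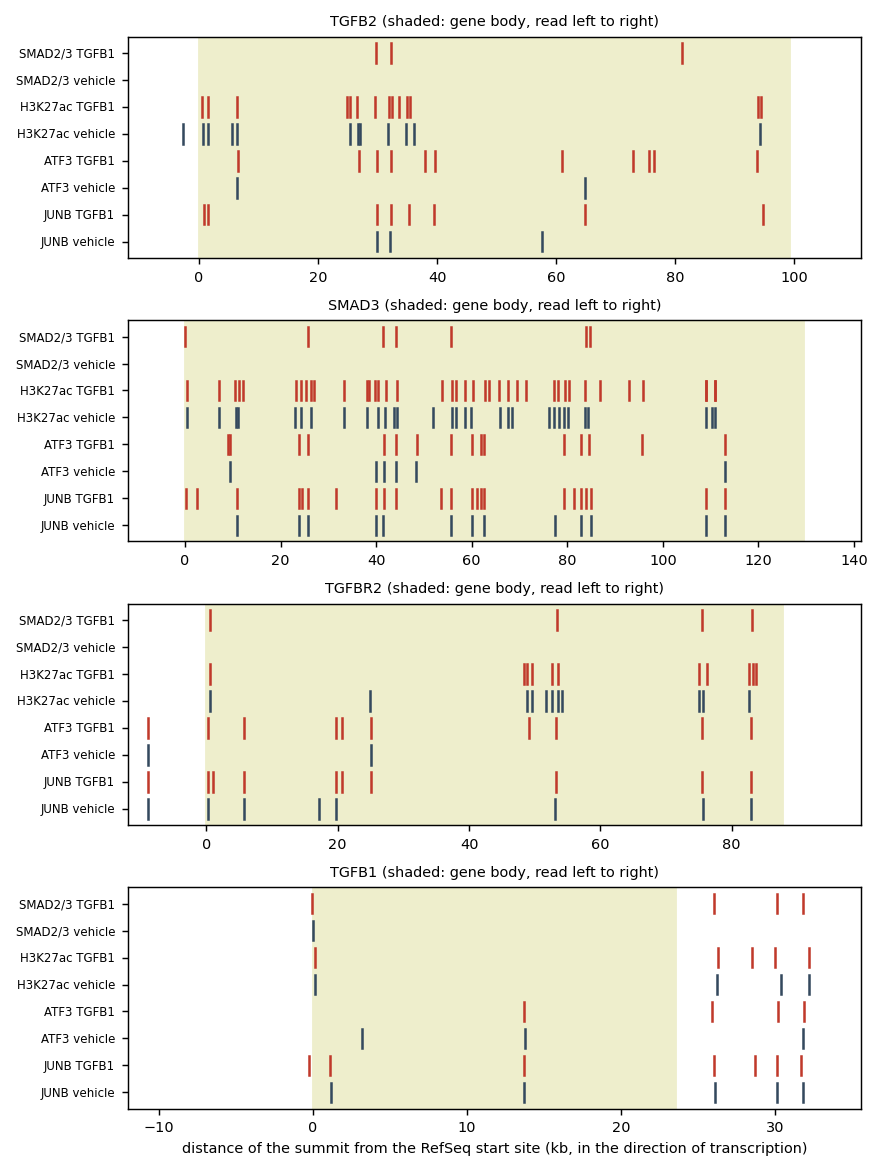
Summit positions at TGFB2, SMAD3, TGFBR2 and TGFB1 in 8 peak lists (down; MITF is left out), by distance in kb from the RefSeq start site along the direction of transcription; red ticks are TGFB1 libraries, dark ticks vehicle libraries, and the shaded area is the gene body. SMAD2/3 ticks appear in the vehicle row only at the TGFB1 start site, and the 2 strongest SMAD2/3 sites of TGFB2 stand at 29.8 and 32.2 kb.

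Most SMAD2/3 sites at these genes overlapped H3K27ac in both treatments. Of the 37 sites, 33 overlapped an H3K27ac peak of the TGFB1 library (89.2%, 95% Wilson interval 75.3 to 95.7) and 30 of the vehicle library (81.1%, 65.8 to 90.5), beside 83.7% and 78.3% of the 7099 sites at other protein-coding genes. The SMAD2/3 summit itself lay inside a vehicle H3K27ac peak at 56.8% of the sites, and 5.41% overlapped such a peak reciprocally by 50%. Neither share was computed for the sites at other genes. At 4 sites the TGFB1 library listed H3K27ac and the vehicle library did not: both strong TGFB2 sites, the BMP7 site and a BMP1 site (10.8%, 4.29 to 24.7, beside 6.94%). JUNB of the TGFB1 library lay on 27 sites (73.0%, 57.0 to 84.6, beside 60%) and JUNB of the vehicle library on 21 (56.8%, 40.9 to 71.3, beside 44.1%).

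Most of the SMAD2/3 sites with ATF3 were at members that held several SMAD2/3 sites. ATF3 of the TGFB1 library lay on 23 of the 37 (62.2%, 46.1 to 75.9), beside 42.3% (41.2 to 43.5), and ATF3 together with JUNB on 22 (59.5%, 43.5 to 73.7, beside 38.8%). The share on ATF3 was 25.0% among the member sites within 1 kb of a gene end and 43.2% where peaks had to overlap reciprocally by 50%. The sites at other genes were not counted under these settings, so neither share can be set beside the 42.3%. In the vehicle ATF3 library the share was 18.9% beside 14.4%. Of the 23 sites, 19 were at 6 of the 7 members with several sites, and 4 were among the 12 members with a single site (33.3%, 13.8 to 60.9). The sites at other genes were not split in this way, and number of sites was not separated from distance to a gene end. Sites of 1 gene share their locus, so the intervals, which take sites as independent, are too narrow. Without the 7 sites of SMAD3 the share was 18 of 30 (42.3 to 75.4), and the interval then overlapped that of the other sites, so no difference in ATF3 is called. MITF of the TGFB1 library lay on 1 site, at BMPR1A (2.7%, 0.479 to 13.8, beside 11.2%), and MITF of the vehicle library on 0 of 37, where the Wilson interval reaches 9.41%, beside 11.7% (11.0 to 12.5). Without SMAD3 the vehicle share was 0 of 30, reaching 11.4%, and no difference in MITF is called. With a window of 50 kb around each gene, the share on MITF of the TGFB1 library was 12.1%, and the sites at other genes were not counted with that window.

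**Figure D4:**
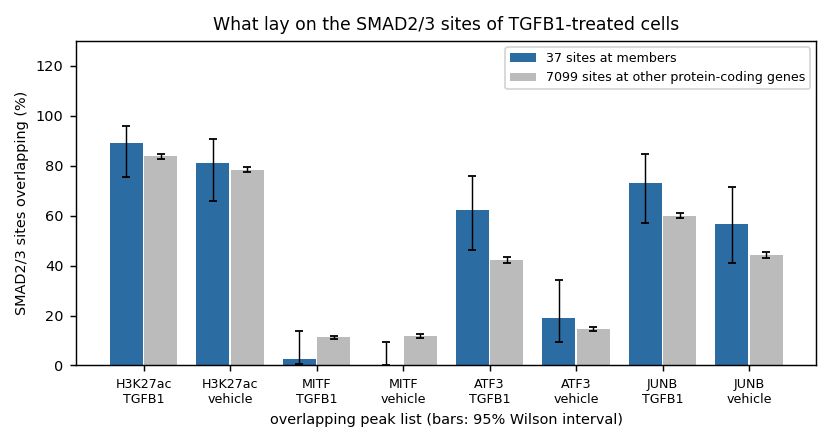
Percent of the SMAD2/3 sites of TGFB1-treated cells that overlapped a peak of each other library by at least 1 bp, for the 37 sites at members (blue) and the 7099 at other protein-coding genes (grey), with 95% Wilson intervals. ATF3 with TGFB1 was at 62.2% and 42.3%, and MITF was at 2.7% or below at members.

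H3K27ac was listed at nearly all of these genes in both treatments. A summit was listed at 42 members in the TGFB1 library and 41 in the vehicle library, where 80.9% and 80.7% of all genes had one. GREM1 had one with TGFB1 and none in vehicle (1.37% of all genes), and no member had the reverse (1.20%). The GREM1 peak (fold enrichment 3.16, -log10 p 4.42) was near the weak end of its list. An H3K27ac summit lay within 1 kb of a gene end at 35 members in each treatment, a share that was 63.3% and 63.2% over all genes. In the TGFB1 library no summit lay there at ACVRL1, BMP4, GDF15, GREM1, LRRC32, SMAD1, TGFBR1, TGFBR3 and TGIF2. Gene ends here are the outer limits of the RefSeq body, which can differ from the start site. Within 1 kb after the start site, that library did list a summit at TGFBR1 (0.181 kb), TGFBR3 (0.371 kb), SMAD1 (0.849 kb) and BMP4 (0.145 kb).

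Of 211 H3K27ac summits at members in the TGFB1 library, 49 (23.2%) belonged to peaks that overlapped none in vehicle, beside 21.8% of all peaks, and of 193 in the vehicle library 23 (11.9%) overlapped none with TGFB1, beside 16.8%. The 49 lay at 21 members, with 10 at SMAD3, 7 at BMP1 and 4 each at TGFB2 and ACVR1. The strongest of the 10 at SMAD3 was 12.2 kb after the start, with a -log10 p of 37.1 and no SMAD2/3 peak on it. Only 3 of the 49 overlapped a SMAD2/3 peak, 2 at TGFB2 and 1 at TGFBR2 under its strongest site.

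ATF3 summits were listed at 34 members with TGFB1 and 27 in vehicle, where 70.2% and 48.8% of all genes had one. The genes of similar length would give 33.5 and 24.1 members. For 9 members (ACVR2B, BMP2, BMPR1B, FST, GDF11, GREM1, INHBA, SMAD5 and TGFBR1) the TGFB1 list alone had a summit, a pattern of 27.5% of all genes, and for CHRD and GDF15 the vehicle list alone did (6.11%). The TGFB1 ATF3 library was implied to be 4.41 times as deep as its vehicle library, at 28.1 and 6.37 M reads, so the treatments cannot be told apart from depth for ATF3. The strongest ATF3 peak of the group in both lists was the same site, 41.6 kb after the start of ACVR1B (chr12:51993153-51993934 in the TGFB1 library, fold enrichment 40.5, and chr12:51993194-51993766 in the vehicle library, 30.7), a gene with no SMAD2/3 summit.

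JUNB summits were listed at 32 members with TGFB1 and 29 in vehicle, where 72.5% and 55.9% of all genes had one and similar length would give 33.8 and 27.1. ACVR2B, CHRD, GDF15, NOG and SMAD4 had one in the TGFB1 list alone (20.7% of all genes), and ACVR1C and ACVRL1 in the vehicle list alone (4.17%). The members held 146 JUNB summits with TGFB1 and 81 in vehicle, from libraries of 47.7 and 34.1 M implied reads. By -log10 p, the strongest JUNB peak of the group in the TGFB1 library lay on the SMAD2/3 site beyond the end of TGFB1 (chr19:41323060-41324131, -log10 p 219), and in the vehicle library on the stronger TGFB2 site (-log10 p 118).

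MITF was listed at a minority of these genes, as it was over all genes. A summit was listed at 5 members with TGFB1 (ACVR1, BMP7, BMPR1A, INHBA and SMAD5), where 21.7% of all genes had one, and at 10 in vehicle, where 23.3% did, from libraries of 7.40 and 7.39 M implied reads. Genes of similar length would give 9.65 and 10.5 members. With TGFB1 the members' share was 11.4% (interval over genes 4.95 to 24.0) beside 21.9%, which lies inside the interval. At a -log10 q of at least 5 it was 4.55% (1.26 to 15.1) beside 16.2%, which lies outside it. Under every other setting given an interval, the share of the other genes lay inside it. Among these were the gene body alone (11.4% beside 12.3%) and a fold enrichment of at least 6 (4.55% beside 14.6%). Among the 35 members with an acetylated gene end in vehicle, the share was 11.4% beside 27.7%, with no interval computed. INHBA alone had MITF with TGFB1 and not in vehicle (7.30% of all genes), at 2 sites of -log10 p 7.95 and 7.98. GREM1, SMAD2, SMAD4, TGFB3, TGFBR2 and ZFYVE9 had MITF in vehicle and not with TGFB1 (8.89%). Of these, the GREM1 site (chr15:32743522-32743772) was the strongest, with a fold enrichment of 15.0 and a -log10 p of 29.0, and the others ran between 5.80 and 9.16 in -log10 p. The TGFB1 ATF3 library listed a peak over the same place at GREM1 (chr15:32743531-32743853, fold enrichment 7.65), and the vehicle ATF3 library listed none. These ATF3 libraries were implied to hold 28.1 and 6.37 M reads, so the missing peak cannot be told apart from depth. JUNB lay over the place in both treatments, with a fold enrichment of 10.3 in the TGFB1 library and 5.80 in the vehicle library.

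The strongest MITF peak of the group, by fold enrichment and by -log10 p, stood at the start of SMAD5, a SMAD of the BMP branch, 0.0830 kb after it. It spanned chr5:136132763-136133243 in the TGFB1 library, with a fold enrichment of 21.3 and a -log10 p of 136, and chr5:136132728-136133314 in the vehicle library, with 71.0 and 249.7. In their own lists these ranked among the top 0.874% and 0.211%. The site inside ACVR1, 45.0 kb after the start, was also found in both treatments, with a fold enrichment of 16.9 in the TGFB1 library and 11.7 in the vehicle library. SMAD5 had no SMAD2/3 summit, and the SMAD2/3 site of ACVR1 was at its promoter, away from MITF.

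Another 57 genes of the pathway, listed by role beside the 44, give the wider picture. SMAD2/3 summits were listed at 17 of them with TGFB1 (29.8%, where 28.2% of genes of similar length had one) and at 4 in vehicle (7.02%, beside 1.74%). By class they were listed with TGFB1 at 8 of 10 inhibitory and negative-feedback genes, 4 of 9 genes for latency and matrix storage, 3 of 11 other antagonists, 1 of 5 other receptors and 1 of 22 other ligands. The shares of genes of similar length would give 3.25, 3.27, 3.38, 1.14 and 5.04 in the same order, and the classes were not tested against each other. The 4 in vehicle were SMAD6 and SMAD7, the inhibitory SMADs, SKIL, a SMAD co-repressor, and PMEPA1, which sequesters receptor SMADs. By -log10 p the strongest peaks were at LTBP2, which encodes a latent TGF-beta binding protein family member (chr14:74619336-74620249, -log10 p 119.5), SKIL (chr3:170356651-170357974, 117), the co-repressor genes SKI (50.4) and TGIF1 (43.9), PMEPA1 (48.2) and SMAD6 (37.9), so that LTBP2 and SKIL exceeded the highest member value. MITF was listed at 13 of the 57 with TGFB1 (22.8%, beside 22.3% of genes of similar length) and 6 in vehicle (10.5%, beside 23.9%). An H3K27ac summit lay at an end of 5 of 8 melanocyte and melanoma lineage markers with TGFB1 and 4 in vehicle, and of 2 of 7 markers of other cell types in each treatment. Over all genes the shares were 63.3% and 63.2%, so the mark at gene ends does not check the labelled cell type.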

How the data were processed

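Peak lists were made from 10 immunoprecipitated libraries of A375 cells, 1 per antibody and treatment. The 6 input libraries were not analysed here. Per the submitters' processing notes, reads were aligned with Bowtie to GRCh38 and peaks were called with MACS2 (version 2.0). The control input behind each list and the handling of duplicate reads are not given in the sources used here. The design text speaks of technical triplicates, and the labels list 1 library each. For each peak the authors deposited a fold enrichment ratio, a -log10 p and a -log10 q, used here to describe, rank or filter peaks within their own list. Where values of both treatments stand side by side, they come from single libraries, some of unlike depth. No difference between treatments is called from them.

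A summit was assigned to every gene whose RefSeq body it lay in or within 10 kb of. Start sites came from the RefSeq promoter table, which gave none for 6 members (BMP2, BMP7, ACVRL1, LRRC32, NOG and BMP1). Genes of similar length were the 200 protein-coding genes outside the group nearest in log length. Peaks overlapped by at least 1 bp, and a site of a single treatment overlapped no peak of the same antibody in the other. Shares carry 95% Wilson intervals. Depth was implied from fold enrichment and -log10 p, solved for whole-number pileups, with an assumed genome of 2.7 Gb, and is an estimate. Counting was tested on simulated data (200 of 200 checked genes right, of 19974 counted). Every member is named. All counts are given for the 8 members with most SMAD2/3 summits and the strongest of each role, and the other pathway genes named are the 6 with the strongest peaks and those with a vehicle peak. ACVR1B and the strongest ATF3, JUNB and H3K27ac peaks were singled out after their values were seen. The members and lists were chosen with earlier results of these data known. Python 3.11.15, pandas 2.3.3, numpy 2.4.6, scipy 1.17.1 and matplotlib 3.10.9 were used.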

Additional observations from a re-analysis of the deposited data

How the results depend on the processing

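Of 134 values recomputed under other settings for 17 results, 95 stayed close to the reported value and 39 moved, and the causes were not tested. A count was called close within a ratio of 1.5 of the reported count. A share of sites was called close inside the 95% Wilson interval of the reported share. The rule is loose: 14 or 25 members with SMAD2/3 in place of 19 were close, as was 12.1% of sites on MITF in place of 2.7%. The alternatives for the shares of sites with ATF3 and MITF were chosen after seeing the data, leaving out SMAD3 among them. No paired analysis was possible because each antibody and treatment had 1 library, and no replicate could be left out.

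Members with a SMAD2/3 summit in the TGFB1 library numbered 12 within 1 kb of a gene end, 11 at a -log10 q of at least 5, 10 at a fold enrichment of at least 6 and 6 in lists of equal length (19 as reported). Those with it in the TGFB1 library and not in vehicle numbered 11, 11, 10 and 5 (18). Summits numbered 58 within 50 kb, 12 at gene ends, 21 at a fold of at least 6 and 8 in equal lists (37). The single vehicle member and summit fell to 0 at both stricter thresholds. MITF members with TGFB1 numbered 14 within 50 kb and 2 at gene ends and at either threshold (5), and in vehicle 18 within 50 kb, 5 at gene ends, 6 by q and 5 by fold (10). At gene ends, ATF3 members numbered 12 with TGFB1 and 4 in vehicle, and JUNB members 19 and 8, with 17 JUNB members in vehicle at a fold of at least 6.

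Of the members' SMAD2/3 sites, H3K27ac of the vehicle library lay on 100% at gene ends, 5.41% with reciprocal overlap and 56.8% with the summit inside (81.1%). JUNB lay on 41.7% at gene ends and 48.6% with reciprocal overlap (73.0%), ATF3 on 25.0% and 43.2% (62.2%), and MITF on 0% at either threshold and with reciprocal overlap (2.7%). Shares of genes of similar length stayed close under 26 of 30 alternatives, here meaning inside a Wilson interval taken over 200 genes. The other 4 limited them to acetylated gene ends (H3K27ac 99.7% with TGFB1 and 100% in vehicle, MITF in vehicle 30.6%, JUNB with TGFB1 83.9%).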
